A study of Homo sapiens with 18 samples.

Results

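The MYC network and ribosome biogenesis genes described here were 40 genes chosen by name from the 63241 genes of a deposited count table on prostate cancer cells. There were 9 members of the MYC network, namely the MYC proteins MYC, MYCN and MYCL, their obligate partner MAX, and the MAX-binding proteins MXD1, MXD3, MXD4, MNT and MGA. The other 31 encode nucleolar proteins, RNA polymerase I subunits and factors that assemble ribosomal subunits. All 40 names were found in the table. No measured value entered the choice rule, but the list was drawn up with earlier results of these data known.

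MYC is a transcription factor that binds DNA as a dimer with MAX, most tightly at the E-box hexamer CACGTG. The MXD proteins, MNT and MGA also dimerize with MAX and mostly repress the genes they bind. MYC is known to raise the genes that make ribosomes: those for RNA polymerase I, which transcribes the ribosomal RNA precursor in the nucleolus, for the small nucleolar ribonucleoproteins (snoRNPs) that modify it, and for the factors that cut and fold it into the small and large subunits. In prostate cancer MYC is often present at raised levels, and enlarged nucleoli are a classical sign of the disease.

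Poly(A) RNA was sequenced from 18 libraries in 6 groups of 3. The groups were untreated PC-3 cells, LNCaP cells given genistein (10 or 20 µM) or baicalein (10 or 20 µM), each over 24 h, and untreated LNCaP cells. LNCaP cells come from a prostate cancer that had spread to a lymph node and depend on androgens, whereas PC-3 cells, from a spread to bone, grow without them. PC-3 was analysed untreated only. All cells grew in RPMI-1640 medium with serum. Controls are labelled untreated, although DMSO vehicle is named for them in the treatment protocol. Both drugs are plant flavonoids of the same composition, genistein being an isoflavone and baicalein a flavone. The point at which the phenyl ring is attached and the positions of the hydroxyl groups distinguish them. Whether replicates were separate cultures is not stated in the labels, so the p-values reflect the spread among these libraries alone, and that spread may be technical.

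Total counts ran from 10013567 to 18445711 per library. CPM are library-size-scaled counts, with TMM scaling over all 18 libraries, and are given in the order of replicates 1, 2 and 3 or as mean ± SD over 3 libraries. In bulk libraries such as these, fewer cells with a transcript and less of it per cell cannot be told apart. The 6 LNCaP markers, among them KLK3 and FOLH1, summed to 98.2 to 102 CPM in PC-3, 802 to 828 CPM with baicalein 20 µM and 3377 to 3659 CPM in untreated LNCaP. The 6 PC-3 markers, among them CAV1 and VIM, summed to 3689 to 3924 CPM in PC-3, 28.1 to 30.5 CPM with baicalein 20 µM and 9.37 to 11.6 CPM in untreated LNCaP. Mitochondrially encoded genes took 12.5 ± 1.97% of the counts with baicalein 20 µM and 5.09 ± 0.381% in untreated LNCaP. The 40 members took 0.467 ± 0.0148% of all counts with baicalein 20 µM and 0.506 ± 0.0264% in untreated LNCaP. In PC-3 the value was 0.489 ± 0.0221%, and for genistein 20 µM it was 0.478 ± 0.0157%. The totals here include mitochondrially encoded genes, so a larger mitochondrial part by itself lowers these percentages. Whether the members differed as a part of the remaining counts was not tested.

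Levels were first set in order within untreated LNCaP, per length, as TPM (counts per length, scaled to a common total) computed with the longest annotated transcript of each gene. NPM1, an abundant nucleolar chaperone, stood first at 1137 ± 33.0 TPM. GNL3, the nucleolar GTP-binding protein nucleostemin, followed at 421 ± 20.0 TPM, apart from NPM1 by more than their spread. NHP2, a core H/ACA snoRNP protein, and NCL, the histone-binding nucleolar protein nucleolin, were next at 386 ± 7.18 and 386 ± 38.5 TPM and did not differ beyond their spread. From NOC2L at 147 ± 4.91 TPM down to BOP1 at 69.2 ± 3.28 TPM, the ranges of mean ± SD overlapped between all neighbours in the order. MYC was the 25th of the 40 at 35.8 TPM with an SD of 34.5, nearly as large as its mean. MAX followed in place 33 at 17.9 ± 1.36 TPM. MYCN, the form known best from neuroblastoma, was last at 0.420 ± 0.334 TPM.

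The start sites of the members were searched for the E-box, because it is the hexamer that MYC and MAX bind. The letters CACGTG, which read the same on both strands, were sought in RefSeq promoter windows on GRCh38.p14 that run from 250 bases before to 50 after an annotated start. Of the 40 members, 34 had a window in the table. CACGTG was present in at least 1 window of 15 of these 34 (44.1%) and of 2396 of all 27305 genes with a window (8.77%). Per window the shares were 15 of 44 (34.1%) for members and 2548 of 35116 (7.26%) for all genes. Member windows were also richer in G and C, with a median GC content of 65.0% against 58.7% for all windows. No member window held the hexamer more than 1 time. A match describes these letters only and is not evidence of binding. The 4 windows below, with the hexamer in capitals, are shown because their genes moved in opposite directions with baicalein, as described further on. WDR43 (chromosome 2, 28894417 to 28894716, plus strand) and GNL3 (chromosome 3, 52685782 to 52686081, plus strand) belong to members that were higher. BYSL (chromosome 6, 41921249 to 41921548, plus strand) and FBL (chromosome 19, 39846330 to 39846629, minus strand) belong to members that were lower. The hexamer starts at position 4 of the transcript in WDR43, at position 7 in GNL3 and FBL and at position 29 in BYSL.
WDR43: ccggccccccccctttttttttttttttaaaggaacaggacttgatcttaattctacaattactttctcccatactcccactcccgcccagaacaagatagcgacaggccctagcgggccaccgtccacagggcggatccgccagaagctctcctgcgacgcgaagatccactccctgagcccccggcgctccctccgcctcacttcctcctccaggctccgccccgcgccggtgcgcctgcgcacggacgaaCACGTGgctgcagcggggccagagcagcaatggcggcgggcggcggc
GNL3: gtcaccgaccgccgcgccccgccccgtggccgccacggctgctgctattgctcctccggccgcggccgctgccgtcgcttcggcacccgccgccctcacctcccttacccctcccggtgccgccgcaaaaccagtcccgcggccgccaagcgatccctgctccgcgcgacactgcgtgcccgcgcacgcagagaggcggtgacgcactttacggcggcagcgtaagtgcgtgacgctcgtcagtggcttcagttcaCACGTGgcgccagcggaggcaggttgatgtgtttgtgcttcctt
BYSL: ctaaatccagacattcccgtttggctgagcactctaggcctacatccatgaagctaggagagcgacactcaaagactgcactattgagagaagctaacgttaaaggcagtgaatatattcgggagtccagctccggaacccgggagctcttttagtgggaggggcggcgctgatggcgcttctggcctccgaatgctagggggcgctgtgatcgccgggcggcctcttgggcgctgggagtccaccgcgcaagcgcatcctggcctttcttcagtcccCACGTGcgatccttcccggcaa
FBL: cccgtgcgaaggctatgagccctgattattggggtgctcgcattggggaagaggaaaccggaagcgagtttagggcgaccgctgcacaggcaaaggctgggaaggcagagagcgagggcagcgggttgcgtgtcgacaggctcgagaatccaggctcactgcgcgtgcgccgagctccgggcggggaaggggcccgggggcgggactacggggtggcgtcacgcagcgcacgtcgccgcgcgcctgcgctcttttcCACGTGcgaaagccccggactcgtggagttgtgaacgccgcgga

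Of the drug comparisons with untreated LNCaP, baicalein at 20 µM gave the most called members. It was compared with untreated LNCaP to ask what the flavone does to the cell's transcripts. The repressor gene MXD1 was higher, both large subunits of RNA polymerase I were lower, and the ribosome assembly genes moved in both directions. MYC mRNA was also called lower and MAX higher. Their calls were lost in 7 and 6 of 16 alternative fits, including some that left out a single library. Genes were tested with edgeR's quasi-likelihood test over all 15 LNCaP libraries, and called at a Benjamini-Hochberg adjusted p under 0.05 over the 16985 genes tested, which included all 40 members. Of the 40 members, 9 were called higher and 15 lower, which is 60.0%. Across all genes tested 57.2% were called in this comparison, so the share of members called was near the background. The members' median log2 fold change was -0.15, against 0.04 for all genes tested. By direction, 22.5% of the members were called higher and 37.5% lower, against 29.4 and 27.8% of all genes tested.

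MYC had 11.3, 4.18 and 4.60 CPM with baicalein 20 µM, against 10.6, 18.9 and 70.6 CPM in untreated LNCaP. The ranges overlapped, and untreated library 3 alone stood 3.74 times above the next highest. The log2 fold change was -2.27 ± 0.78 (SE; 95% interval -3.97 to -0.57), with an edgeR adjusted p of 0.0250. The call ended without untreated library 3 (log2 fold change -1.12, edgeR adjusted p = 0.197) and without baicalein library 2 (adjusted p = 0.0837) or 3 (adjusted p = 0.0813). It also ended when the replicate number was a block in the fit (adjusted p = 0.0566), without a filter on low counts (0.0685) and in a fit on the compared groups alone (0.0565). MYCL had 3.52, 7.87 and 5.72 CPM with baicalein 20 µM, against 5.84, 8.14 and 7.30 CPM in untreated LNCaP, and was not called.

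**Figure D1:**
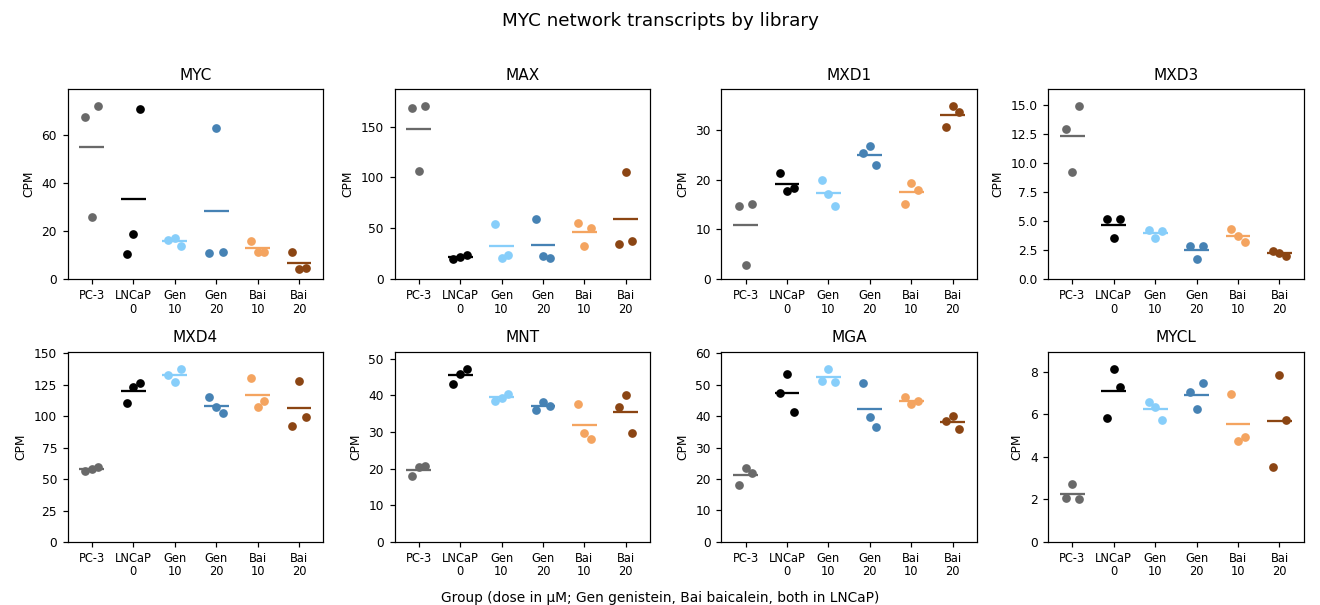
CPM of 8 MYC network members in each of the 18 libraries (points) with the group mean (line); groups run along the horizontal axis and each vertical axis starts at 0. MYC and MAX each had single libraries far above the others of their group, whereas MXD1 with baicalein 20 µM lay above all untreated LNCaP libraries.

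MAX had 34.6, 106 and 37.8 CPM with baicalein 20 µM, against 19.9, 22.3 and 23.8 CPM in untreated LNCaP. The groups did not overlap, and library 2 was far above the others. The log2 fold change was 1.47 ± 0.51 (edgeR adjusted p = 0.0259), and without baicalein library 2 it was 0.77 (adjusted p = 0.183). Leaving out any 1 of the untreated libraries also ended the call, with adjusted p-values from 0.0626 to 0.0721, as did scaling by library totals alone (0.0770) and no filter on low counts (0.0851). MAX lies opposite FNTB on chromosome 14, and the library kit does not mark strand, so reads of the overlapping parts cannot be told apart.

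The repressor partners moved in both directions. MXD1, which is known to rise as cells differentiate, had 30.6, 34.7 and 33.6 CPM with baicalein 20 µM, against 21.3, 17.7 and 18.4 CPM in untreated LNCaP. All 3 treated libraries lay above all 3 untreated ones, at a log2 fold change of 0.82 ± 0.13 (edgeR adjusted p = 0.000103). The MXD1 call ended when all 18 libraries entered 1 fit (adjusted p = 0.0837), and with library totals alone the log2 fold change was 0.53. MXD3, the family member tied to proliferating cells, had 2.41, 2.25 and 2.04 CPM with baicalein 20 µM, against 5.23, 3.55 and 5.23 CPM in untreated LNCaP. The MXD3 groups did not overlap either, and the log2 fold change was -1.02 ± 0.22 (edgeR adjusted p = 0.00157). MNT, a broadly expressed repressor, was called lower by a narrow margin (log2 fold change -0.31 ± 0.13, edgeR adjusted p = 0.0498), and left the called set in 9 of 16 alternative fits. MXD4 (107 ± 19.1 CPM with baicalein 20 µM, 120 ± 8.12 CPM untreated) and MGA (38.2 ± 2.08 and 47.4 ± 6.15 CPM) were not called.

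Genes for the transcription of ribosomal RNA gave the widest contrast. POLR1A, the largest catalytic subunit of RNA polymerase I, had 21.0, 24.5 and 22.5 CPM with baicalein 20 µM, against 79.7, 86.7 and 89.8 CPM in untreated LNCaP. POLR1B, the other catalytic subunit, had 22.6, 22.6 and 22.9 CPM with baicalein 20 µM, against 49.5, 56.9 and 58.8 CPM in untreated LNCaP. RRN3, the factor known as TIF-IA that brings the polymerase to the promoter, had 377, 181 and 270 CPM with baicalein 20 µM, against 112, 92.5 and 99.9 CPM in untreated LNCaP. In none of the 3 genes did the groups overlap: both subunits were low and the initiation factor high in every treated library. The log2 fold changes were -1.87 ± 0.11 for POLR1A (edgeR adjusted p = 2.17e-08), -1.24 ± 0.09 for POLR1B (1.46e-07) and 1.49 ± 0.26 for RRN3 (0.000270). All 3 calls were kept in each of the 16 alternative fits. RRN3 has 5 numbered pseudogene rows in the table, so part of its reads may be assigned elsewhere.

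Among the 9 members of small subunit assembly, 2 were called higher and 3 lower. Of all genes tested, 57.2% were called in this comparison, 29.4% higher and 27.8% lower. WDR43, which is also part of the complex that couples polymerase I to processing, had 421, 249 and 335 CPM with baicalein 20 µM, against 109, 92.9 and 92.9 CPM in untreated LNCaP. The lowest treated library was above the highest untreated one, and the log2 fold change of 1.81 ± 0.20 was the highest of the 40 members (edgeR adjusted p = 7.24e-06). The WDR43 locus also hosts small nucleolar RNAs within its introns. RRP12, an export factor of pre-ribosomal particles, had 103, 133 and 103 CPM with baicalein 20 µM, against 69.0, 73.9 and 76.4 CPM untreated, again without overlap (log2 fold change 0.67 ± 0.11, edgeR adjusted p = 0.000205). BYSL, a factor of late small subunit maturation, had 11.0, 14.1 and 12.0 CPM with baicalein 20 µM, against 27.8, 30.8 and 32.6 CPM untreated. BYSL was low in all treated libraries (log2 fold change -1.26 ± 0.14, edgeR adjusted p = 8.64e-06). UTP20 and NOP14, both of the small subunit processome, fell by 0.68 and 0.41 on the log2 scale (edgeR adjusted p = 0.000432 and 0.0262). The UTP20 call was kept in each of the 16 alternative fits, whereas the NOP14 call was lost in 5, among them those without untreated library 2, baicalein library 1 or baicalein library 3. UTP4, HEATR1, NOC4L and DDX21 were not called, with log2 fold changes from -0.11 to 0.16.

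Large subunit assembly had no member called higher and 3 of 6 called lower, where 57.2% of all genes tested were called. By direction, 29.4% of all genes were called higher and 27.8% lower, and 6 members are few to set beside these. BOP1, PES1 and WDR12 form a single complex, PeBoW, that is needed to process the ribosomal RNA of the large subunit, and their transcripts did not move alike. WDR12 had 23.2, 24.4 and 23.7 CPM with baicalein 20 µM, against 59.2, 69.0 and 63.0 CPM in untreated LNCaP. BOP1 had 22.5, 32.9 and 26.4 CPM with baicalein 20 µM, against 58.0, 64.1 and 64.1 CPM untreated. PES1 had 98.9, 127 and 91.7 CPM with baicalein 20 µM, against 113, 124 and 128 CPM untreated. WDR12 and BOP1 were low in every treated library, while the PES1 groups overlapped. The log2 fold changes were -1.38 ± 0.09 for WDR12 (edgeR adjusted p = 4.32e-08), -1.15 ± 0.12 for BOP1 (5.28e-06) and -0.16 ± 0.14 for PES1 (0.343; 95% interval -0.47 to 0.14). NOC2L, which takes part in large subunit export, fell by 0.72 on the log2 scale (edgeR adjusted p = 0.000358). NOP16 (53.9 ± 11.0 CPM with baicalein 20 µM, 54.3 ± 3.22 CPM untreated) and RRS1 (67.3 ± 6.54 and 74.5 ± 1.48 CPM), both of large subunit assembly, were not called.

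**Figure D2:**
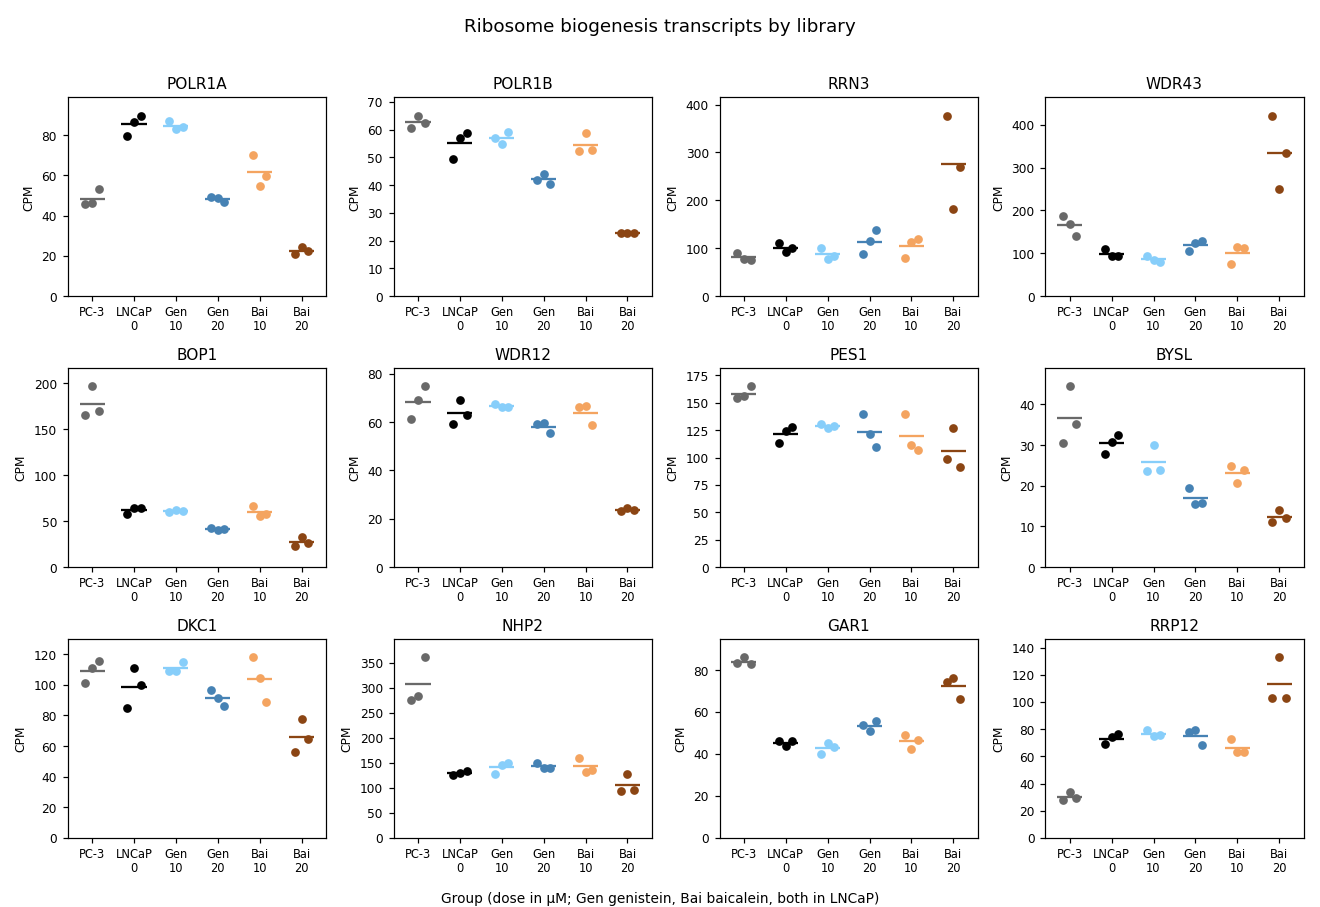
CPM of 12 ribosome biogenesis members in each of the 18 libraries (points) with the group mean (line); groups run along the horizontal axis and each vertical axis starts at 0. With baicalein 20 µM the 3 libraries were low for POLR1A, POLR1B, BOP1 and WDR12 and high for RRN3 and WDR43, with no overlap with untreated LNCaP.

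The snoRNP and nucleolar scaffold genes were likewise divided. GAR1, DKC1 and NHP2 are core proteins of the H/ACA snoRNPs, which guide pseudouridylation. GAR1 had 74.3, 76.3 and 66.2 CPM with baicalein 20 µM, against 45.9, 43.7 and 46.1 CPM in untreated LNCaP. DKC1, the pseudouridine synthase, had 56.2, 77.6 and 64.3 CPM with baicalein 20 µM, against 85.1, 111 and 99.9 CPM untreated. GAR1 was thus high and DKC1 low in all treated libraries, at log2 fold changes of 0.72 ± 0.10 (edgeR adjusted p = 4.49e-05) and -0.54 ± 0.14 (0.00469), while NHP2 was not called (-0.26 ± 0.13, adjusted p = 0.105). Of the box C/D group, which guides 2'-O-methylation, the methyltransferase gene FBL fell by 0.60 on the log2 scale (adjusted p = 0.0188) and RRP9, of the U3 snoRNP, by 0.50 (adjusted p = 0.00451). The FBL call was lost without untreated library 3, without baicalein library 1 and in a fit on the compared groups alone. NOP2, a methyltransferase of large subunit ribosomal RNA, fell by 0.60 (adjusted p = 0.0261), a call lost in 4 of 16 alternative fits, while the C/D core genes NOP56 (0.17 ± 0.11) and NOP58 (0.40 ± 0.21) were not called. Of the scaffold proteins, NPM1 (log2 fold change 0.50 ± 0.14), GNL3 (0.66 ± 0.08) and LYAR (0.85 ± 0.13), a nucleolar zinc finger protein, rose, with edgeR adjusted p-values of 0.00740, 2.10e-05 and 0.000104. With library totals alone the log2 fold changes were 0.20 for NPM1, whose call ended (adjusted p = 0.175), 0.36 for GNL3 and 0.56 for LYAR. NCL (-0.24 ± 0.11) and NOLC1 (0.50 ± 0.21), a chaperone of snoRNPs, were not called. NPM1 has 49 numbered pseudogene rows, so its count is uncertain.

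**Figure D3:**
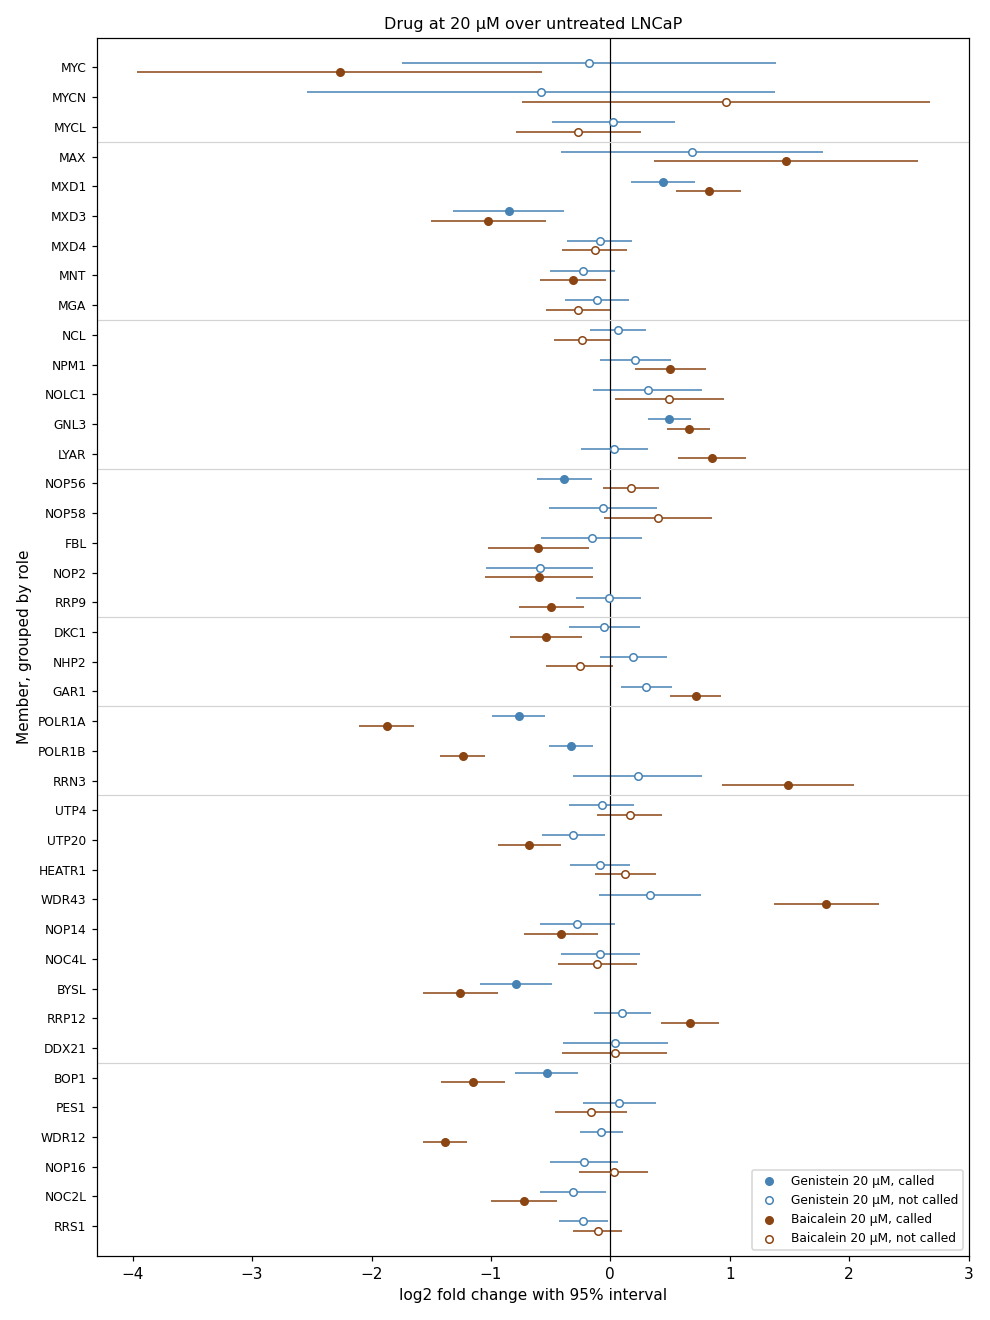
Log2 fold change (horizontal axis, with 95% intervals from the edgeR fit) of the 40 members grouped by role, for genistein 20 µM (blue) and baicalein 20 µM (brown) over untreated LNCaP; filled points were called at an adjusted p under 0.05. Baicalein estimates for MYC, POLR1A, WDR12, POLR1B, BYSL, BOP1 and MXD3 lie below -1, and those of WDR43, RRN3 and MAX above 1.

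Base composition was set beside direction for baicalein 20 µM. Transcripts of the 9 called higher had a median GC content of 43.3% (40.3 to 58.6%), those of the 15 called lower 54.3% (40.2 to 65.2%) and those of the 16 not called 52.5%. Each library's deviations from the gene means were next freed of their trend with GC content and transcript length. With that trend removed, 12 members were called higher and 16 lower, and the share of all genes called was 62.3%. With libraries scaled by their totals alone, the median of all genes moved to -0.25 and the members' calls to 7 higher and 21 lower. Of the 16985 genes tested, 3286 were then called higher and 6215 lower. Presence of CACGTG did not separate the directions: it was found in windows of 4 of 8 members called higher, 7 of 13 called lower and 4 of 13 not called. The higher mitochondrial share and the lower sum of LNCaP markers in the same 3 libraries, given above, accompanied all of these changes, and their part in them was not tested.

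Other genes of the same pathways, from lists of 101 genes outside the members, were 29 higher and 36 lower with baicalein 20 µM. That is 64.4%, against 57.2% of all genes tested. By direction it is 28.7% higher and 35.6% lower, against 29.4 and 27.8% of all genes. Of 12 other genes of the RNA polymerase I machinery, 6 were higher and 4 lower. POLR1D, a subunit shared with RNA polymerase III, rose by 1.11 ± 0.12 on the log2 scale, while the subunit gene POLR1G changed by -1.08 ± 0.12 and UBTF, which opens ribosomal DNA for transcription, by -1.01 ± 0.12. Of 26 small subunit processome genes, 6 were higher and 9 lower, among them UTP3 (1.34 ± 0.08), NOL6 (-1.86 ± 0.13) and PDCD11 (-1.47 ± 0.13). Of 32 large subunit assembly genes, 15 were higher and 8 lower, among them NSA2 (0.81 ± 0.08), WDR74 (1.07 ± 0.11) and NLE1 (-1.40 ± 0.14). Growth metabolism genes that MYC is known to activate gave 0 higher and 11 lower of 19, at a median log2 fold change of -0.51 against 0.04 for all genes. CAD, the enzyme that starts pyrimidine synthesis, had 26.8 ± 4.92 CPM with baicalein 20 µM and 61.0 ± 2.88 CPM untreated. LDHA, lactate dehydrogenase, had 119 ± 27.9 and 330 ± 62.5 CPM, and the arginine methyltransferase PRMT5 69.8 ± 6.72 and 120 ± 7.88 CPM. Of 8 regulators of MYC protein turnover, 2 were higher and 3 lower, including the ubiquitin ligase genes FBXW7 (log2 fold change 1.97 ± 0.19) and HUWE1 (-1.32 ± 0.12) and the kinase gene PIM1 (0.49 ± 0.13). MLXIP was the 1 gene called, lower, of 4 other network partners. MYC protein itself was not measured.

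Genistein at 20 µM, the isoflavone at the same dose, called fewer members. POLR1A, BYSL and BOP1 fell, at 1.45- to 1.73-fold, and MYC itself was not called. In all, 2 of the 40 members were called higher and 6 lower (20.0%), in a comparison where edgeR called 16.4% of all genes tested, 8.31% higher and 8.12% lower. The members' median log2 fold change was -0.08, against 0.05 for all genes. MYC had 10.8, 62.8 and 11.2 CPM with genistein 20 µM, against 10.6, 18.9 and 70.6 CPM untreated. A single library was high in each group, and the log2 fold change of -0.18 had a 95% interval of -1.75 to 1.39. MAX had 59.2, 22.5 and 20.8 CPM with genistein 20 µM, against 19.9, 22.3 and 23.8 CPM untreated. Here the 1st library was high, not the 2nd as for MYC, and MAX was not called.

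POLR1A had 49.0, 48.7 and 46.9 CPM with genistein 20 µM, against 79.7, 86.7 and 89.8 CPM untreated. BYSL had 19.4, 15.6 and 15.7 CPM with genistein 20 µM, against 27.8, 30.8 and 32.6 CPM untreated. BOP1 had 42.5, 39.9 and 41.3 CPM with genistein 20 µM, against 58.0, 64.1 and 64.1 CPM untreated. In each gene all treated libraries lay below all untreated ones. With genistein 20 µM the groups did not overlap for 16 of the 40 members. The log2 fold changes were -0.77 ± 0.10 (edgeR adjusted p = 0.000359), -0.79 ± 0.14 (0.00263) and -0.53 ± 0.12 (0.0109), and these 3 calls were kept in each of the 16 alternative fits. The other 5 were less steady. MXD3 fell by 0.85 on the log2 scale (adjusted p = 0.0175), NOP56 by 0.38 (adjusted p = 0.0280) and POLR1B by 0.33 (adjusted p = 0.0201), and leaving out single libraries ended each of these calls. GNL3 rose by 0.49 ± 0.08 (adjusted p = 0.00183), a call that ended when the GC and length trend was removed or when libraries were scaled by totals alone. MXD1 rose by 0.44 ± 0.13 (adjusted p = 0.0303) and lost its call in 13 of 16 alternative fits. With totals alone the median of all genes moved to -0.09 and the split of the members to 0 higher and 7 lower. Of the 16985 genes tested, 628 were then called higher and 1739 lower. Leaving out untreated library 3 left 4 members called, beside 9.75% of all genes, which is the lowest count of members among the fits without 1 library.

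Of the 101 other pathway genes, 4 were higher and 8 lower with genistein 20 µM. That is 11.9%, below the 16.4% of all genes tested. By direction it is 3.96% higher and 7.92% lower, against 8.31 and 8.12% of all genes. PDCD11 (39.5 ± 2.54 CPM with genistein 20 µM, 79.1 ± 4.72 CPM untreated) and NOL6 (58.4 ± 3.28 and 93.4 ± 3.63 CPM) were the 2 small subunit processome genes called, both lower. UBTF (log2 fold change -0.51 ± 0.12), POLR1G (-0.48 ± 0.12) and TAF1C (-0.71 ± 0.18) were the 3 called of the RNA polymerase I machinery, again all lower. PIM1 had 45.2 ± 1.86 CPM with genistein 20 µM and 16.9 ± 0.595 CPM untreated, a log2 fold change of 1.48 ± 0.13 (edgeR adjusted p = 1.35e-05). HUWE1 changed by -0.55 ± 0.12 and MLXIP by -0.50 ± 0.14, and in large subunit assembly only NSA2 was called (0.27 ± 0.08). Of the growth metabolism genes, SHMT2 (0.55 ± 0.12) and HSPD1 (0.37 ± 0.08) rose and CAD changed by -0.52 ± 0.12. Both 20 µM comparisons use the same 3 untreated libraries.

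The isomers were compared directly at each dose, which makes 2 unpaired comparisons of groups, with p-values adjusted over all genes tested within each. At 20 µM, 12 members were higher with genistein than with baicalein and 7 lower (47.5%), while 48.7% of all genes tested were called, 25.4% higher and 23.3% lower. WDR12 had 59.3, 59.7 and 55.4 CPM with genistein, against 23.2, 24.4 and 23.7 CPM with baicalein, a log2 difference of 1.31 ± 0.09 (edgeR adjusted p = 1.66e-07). POLR1A differed by 1.11 ± 0.10 (adjusted p = 3.19e-06) and POLR1B by 0.91 ± 0.09 (adjusted p = 3.94e-06), both higher with genistein. WDR43 had 106, 124 and 128 CPM with genistein, against 421, 249 and 335 CPM with baicalein (log2 difference -1.47 ± 0.20, edgeR adjusted p = 6.10e-05). RRN3 (-1.26 ± 0.25), LYAR (-0.82 ± 0.13), RRP12 (-0.57 ± 0.11) and NOP56 (-0.56 ± 0.11) were likewise lower with genistein. MYC differed by 2.09 ± 0.78 (edgeR adjusted p = 0.0417), and the call ended without genistein library 2, which held 62.8 CPM (log2 difference 0.75, adjusted p = 0.393). It also ended without baicalein library 2 (adjusted p = 0.123) or 3 (adjusted p = 0.121). Among the 21 members not called, the interval was narrow for MXD4 (-0.23 to 0.31), MNT (-0.19 to 0.36) and RRS1 (-0.32 to 0.08), and wide for MAX (-1.88 to 0.31) and MYCN (-3.45 to 0.34). Without baicalein library 3 the count was 12 members, 6 in each direction, beside 42.6% of all genes called. With the GC and length trend removed the count was 11 higher and 11 lower, beside 55.5% of all genes.

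At 10 µM no member was called between the isomers, in a comparison where 0.00589% of all genes tested were called. An unadjusted p under 0.05 was reached by 2 members. The share of all genes under that unadjusted threshold is not given, so this count is not a result about the members. DESeq2 called 1 member, POLR1A, beside 0.332% of all genes. POLR1A had 87.1, 83.2 and 84.1 CPM with genistein 10 µM, against 70.3, 54.6 and 59.9 CPM with baicalein 10 µM. Those groups did not overlap, and the log2 difference was 0.44 ± 0.10 with a 95% interval of 0.22 to 0.66 (edgeR adjusted p = 0.503).

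**Figure D4:**
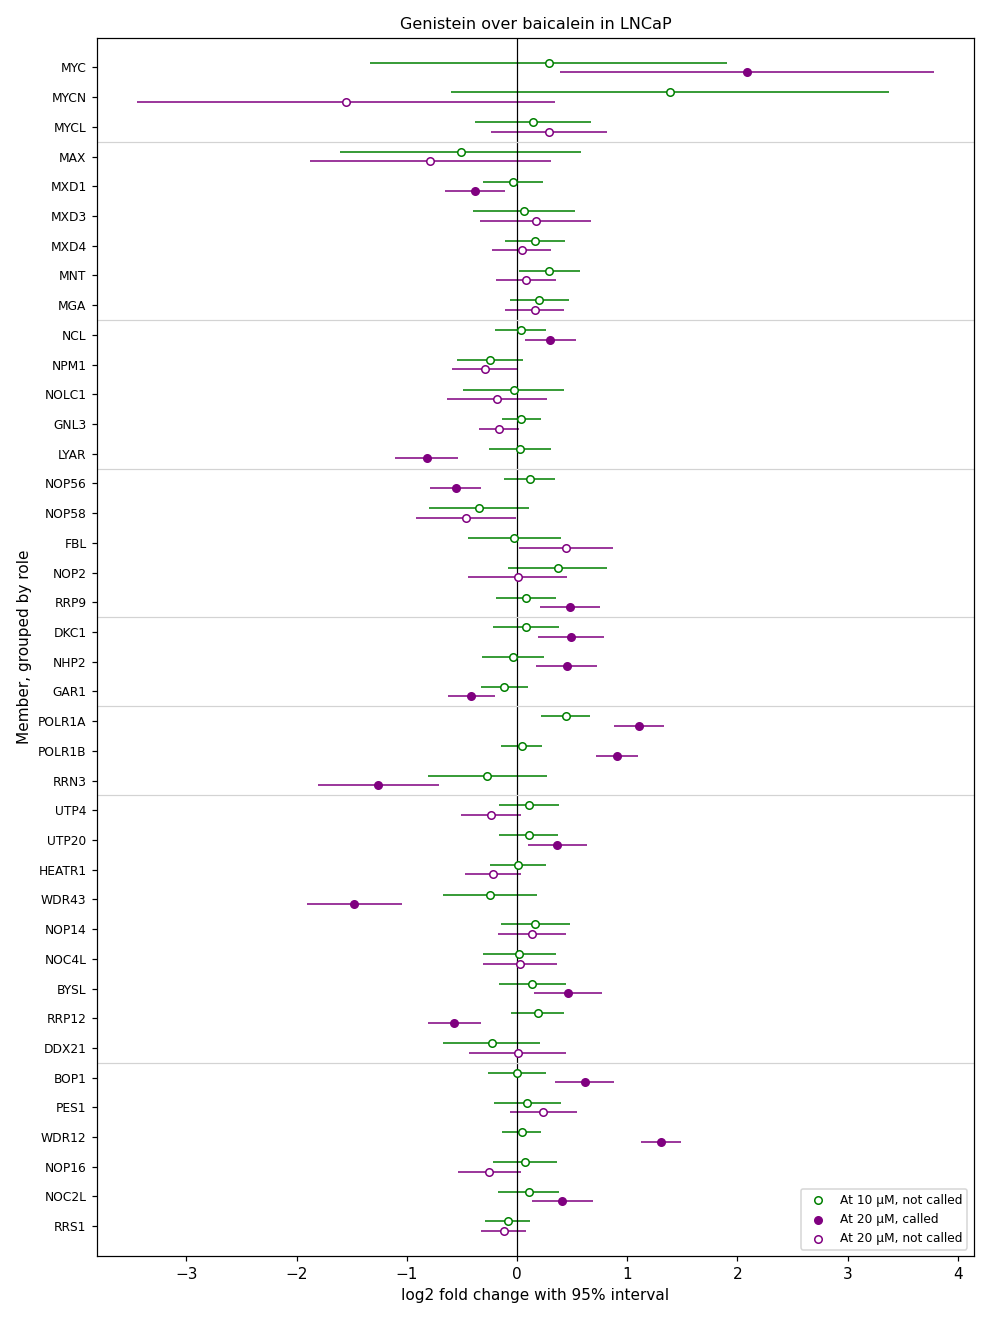
Log2 difference between genistein and baicalein (horizontal axis, with 95% intervals from the edgeR fit) of the 40 members grouped by role, at 10 µM (green) and 20 µM (purple); filled points were called at an adjusted p under 0.05, and points right of 0 were higher with genistein. At 10 µM 0 members were called, and at 20 µM 12 were higher and 7 lower with genistein.

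At 10 µM neither drug called a member against untreated LNCaP. For genistein, edgeR called 0.112% of all genes tested and 0 members. NCL, GNL3 and LYAR, 3 members, reached an unadjusted p under 0.05 there, and DESeq2 likewise called 0 members. For baicalein, edgeR called 0.4% of all genes and 0 members, and 5 members reached an unadjusted p under 0.05. The share of all genes under that unadjusted threshold is not given for either drug. The counts of 3 and 5 are therefore not a result about the members. DESeq2 called MNT and POLR1A, 2 members, both lower, beside 2.48% of all genes. MNT had 37.7, 29.7 and 28.0 CPM with baicalein 10 µM, against 43.1, 46.0 and 47.2 CPM untreated, and POLR1A had 70.3, 54.6 and 59.9 CPM, against 79.7, 86.7 and 89.8 CPM. All 3 treated libraries were below all untreated ones for both genes, but edgeR's adjusted p was 0.168 for MNT and 0.116 for POLR1A. Without baicalein 10 µM library 1, edgeR called POLR1A (log2 fold change -0.54, adjusted p = 0.0374). MAX had 55.2, 32.3 and 50.7 CPM with baicalein 10 µM, above all untreated libraries but not called (log2 fold change 1.12, 95% interval 0.01 to 2.22).

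The step from 10 to 20 µM was tested within each drug. With baicalein, 7 members were higher at 20 than at 10 µM and 13 lower, which is 20 of 40, where 54.4% of all genes were called, 26.8% higher and 27.5% lower. WDR12 (-1.43 ± 0.09), POLR1A (-1.45 ± 0.11), POLR1B (-1.27 ± 0.09), RRN3 (1.41 ± 0.25) and WDR43 (1.73 ± 0.20) had the largest steps on the log2 scale among called members, with edgeR adjusted p-values from 4.14e-08 to 0.000444. NCL had 445, 555 and 501 CPM at 20 µM, against 703, 690 and 650 CPM at 10 µM, a log2 fold change of -0.45 ± 0.11 (adjusted p = 0.00315). With genistein, 3 members were higher at 20 than at 10 µM and 7 lower (25.0%), where 13.2% of all genes were called, 5.59% higher and 7.63% lower. POLR1A had 49.0, 48.7 and 46.9 CPM at 20 µM, against 87.1, 83.2 and 84.1 CPM at 10 µM, a log2 fold change of -0.78 ± 0.10 (adjusted p = 0.000419), and was the 1 call kept in each of the 16 alternative fits. UTP20 had 31.5, 28.5 and 27.0 CPM at 20 µM, against 42.0, 41.9 and 41.2 CPM at 10 µM (log2 fold change -0.49 ± 0.12, adjusted p = 0.0188). Leaving out genistein 10 µM library 2 or genistein 20 µM library 2 brought the genistein count down to 4, and leaving out genistein 10 µM library 3 or genistein 20 µM library 3 to 5. Of all genes, these fits called 6.9 to 7.28%. With totals alone the median of all genes moved to -0.11 for genistein and -0.22 for baicalein, and the splits to 0 higher and 8 lower and to 5 higher and 17 lower. Of the 16985 genes tested, 590 were then called higher and 1716 lower for genistein, and 3326 and 5786 for baicalein.

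Untreated PC-3 was compared with untreated LNCaP, the lines differing in androgen dependence. MAX, MXD3, BOP1 and NHP2 were among the genes higher in PC-3, and MYCL, MXD4, MNT, MGA and RRP12 among those lower. The fit over these 6 libraries tested 17259 genes, with 39 of the 40 members. MYCN did not pass the filter on low counts and had 0.464, 0.796 and 0.339 CPM in PC-3, against 0.359, 0.122 and 0.805 CPM in LNCaP. In PC-3 16 members were called higher and 14 lower (76.9%), where 74.9% of all genes tested were called, 37% higher and 37.9% lower. The members' median log2 fold change was 0.24, against -0.02 for all genes. With totals alone the median of all genes moved to -0.31, and the split to 10 higher and 14 lower. Of the 17259 genes tested, 5282 were then called higher and 7666 lower.

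MYC had 67.2, 26.0 and 71.8 CPM in PC-3, against 10.6, 18.9 and 70.6 CPM in LNCaP. The groups overlapped through LNCaP library 3 and PC-3 library 2, and the log2 fold change of 0.71 ± 0.73 was not called (edgeR adjusted p = 0.408). Without LNCaP library 3 it was 1.88 and was called (adjusted p = 0.0196). MAX had 168, 106 and 170 CPM in PC-3, against 19.9, 22.3 and 23.8 CPM in LNCaP, with no overlap and a log2 fold change of 2.73 ± 0.22 (edgeR adjusted p = 3.18e-05). MXD3 had 13.0, 9.23 and 14.9 CPM in PC-3, against 5.23, 3.55 and 5.23 CPM in LNCaP (log2 fold change 1.38 ± 0.25, edgeR adjusted p = 0.00169).

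The other MAX-binding repressors were lower in PC-3. MNT had 18.1, 20.4 and 20.7 CPM in PC-3, against 43.1, 46.0 and 47.2 CPM in LNCaP (log2 fold change -1.22 ± 0.10, edgeR adjusted p = 3.38e-05). MXD4 (58.0 ± 1.56 CPM in PC-3, 120 ± 8.12 CPM in LNCaP) and MGA (21.3 ± 2.78 and 47.4 ± 6.15 CPM) were called lower as well, and none of these groups overlapped. MXD1 was the exception only in not being called (edgeR adjusted p = 0.192). It had 14.7, 2.79 and 15.03 CPM in PC-3, against 21.3, 17.7 and 18.4 CPM in LNCaP. All PC-3 libraries lay below all LNCaP ones here too, but PC-3 library 2 was far below the rest of its group. MYCL, the form first found in lung cancer, had 2.09, 2.71 and 2.03 CPM in PC-3, against 5.84, 8.14 and 7.30 CPM in LNCaP (log2 fold change -1.64 ± 0.21, edgeR adjusted p = 0.000341).

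**Figure D5:**
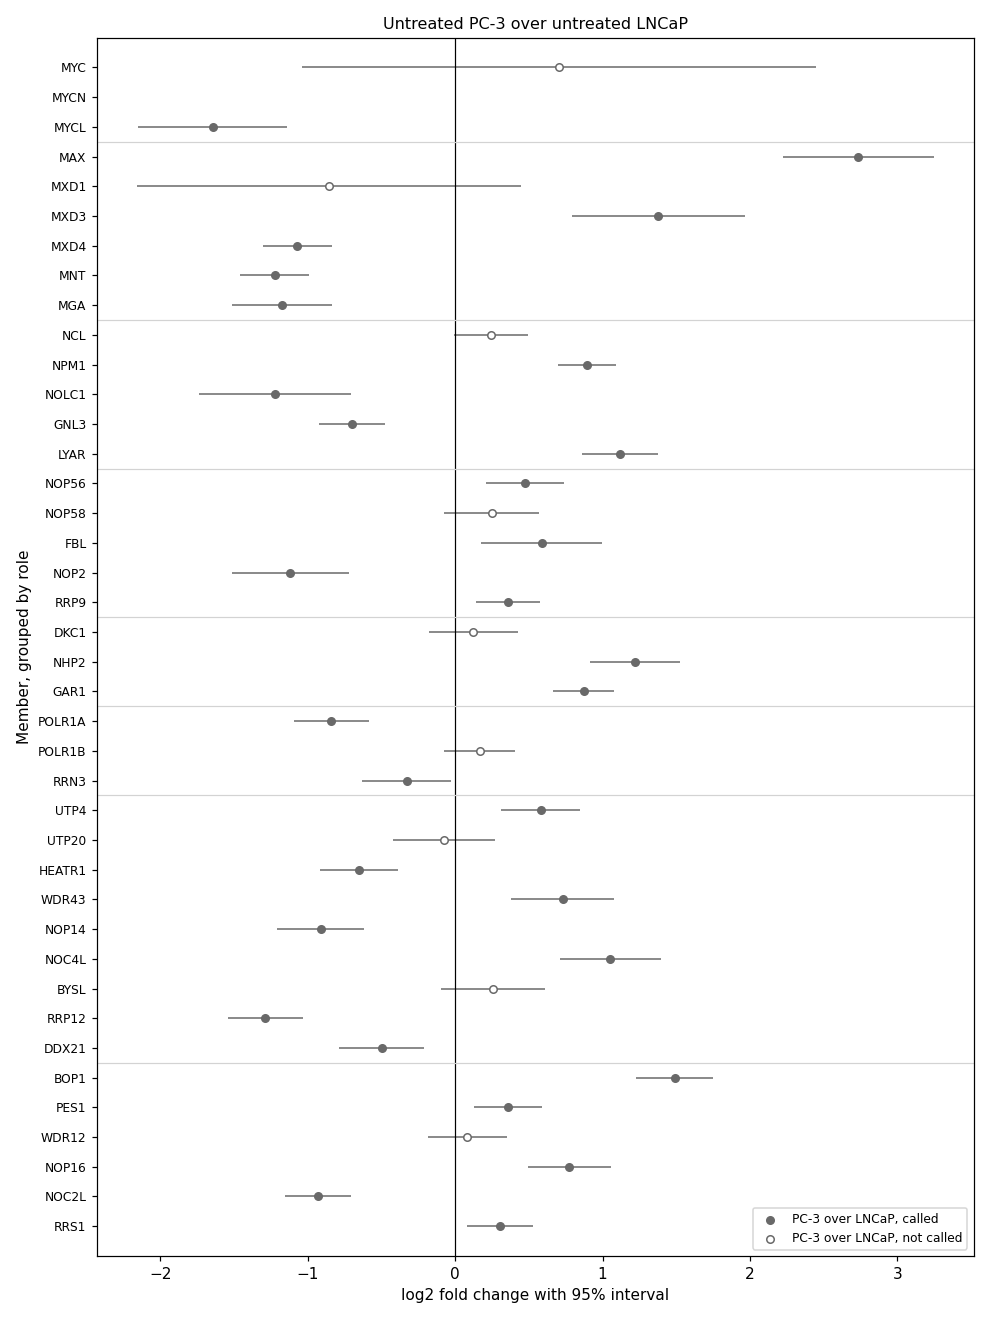
Log2 fold change of untreated PC-3 over untreated LNCaP (horizontal axis, with 95% intervals from the edgeR fit) for the 39 members tested, grouped by role; filled points were called at an adjusted p under 0.05. MAX, BOP1, MXD3, NHP2, LYAR and NOC4L lie above 1 and MYCL, RRP12, MNT, NOLC1, MGA, NOP2 and MXD4 below -1, while the intervals of MYC and MXD1 span 0.

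Of the 31 ribosome biogenesis members, 14 were higher and 10 lower in PC-3 (77.4%, against 74.9% of all genes tested). BOP1 had 165, 196 and 169 CPM in PC-3, against 58.0, 64.1 and 64.1 CPM in LNCaP, far apart in every library (log2 fold change 1.49 ± 0.11, edgeR adjusted p = 2.18e-05). Its PeBoW partners differed less: PES1 was called higher by 0.36 ± 0.10 (adjusted p = 0.0118) and WDR12 was not called (0.08 ± 0.11, 95% interval -0.18 to 0.35). The PES1 call was lost in 4 of 15 alternative fits, with a log2 fold change of 0.08 under library totals alone (adjusted p = 0.562) and 0.17 with GC and length trends taken out (0.0576). NHP2 (307 ± 47.2 CPM in PC-3, 130 ± 4.21 CPM in LNCaP) and GAR1 (84.0 ± 1.82 and 45.3 ± 1.35 CPM) were higher, while DKC1 was not called (0.12 ± 0.13). LYAR (1.12 ± 0.11), NOC4L (1.05 ± 0.14), NPM1 (0.89 ± 0.08), NOP16 (0.78 ± 0.12) and WDR43 (0.73 ± 0.15) rose on the log2 scale. POLR1A had 45.6, 46.2 and 53.4 CPM in PC-3, against 79.7, 86.7 and 89.8 CPM in LNCaP (log2 fold change -0.84 ± 0.11, edgeR adjusted p = 0.000325), while POLR1B was not called (0.17 ± 0.10). With GC and length trends taken out POLR1A stayed called at -0.34. RRP12 had 27.7, 33.8 and 29.5 CPM in PC-3, against 69.0, 73.9 and 76.4 CPM in LNCaP, without overlap (log2 fold change -1.29 ± 0.11, edgeR adjusted p = 3.74e-05). NOLC1 (-1.22 ± 0.22), NOP2 (-1.12 ± 0.17), NOC2L (-0.93 ± 0.09), NOP14 (-0.91 ± 0.12), GNL3 (-0.70 ± 0.09) and HEATR1 (-0.65 ± 0.11) were also lower. RRP9 was called higher (0.36 ± 0.09), but its log2 fold change became -0.0044 with GC and length trends taken out.

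Of the 101 other pathway genes, 47 were higher and 27 lower in PC-3. That is 73.3%, against 74.9% of all genes tested. By direction it is 46.5% higher and 26.7% lower, against 37 and 37.9% of all genes. All 4 further network partners were lower, among them MLXIP (31.5 ± 1.84 CPM in PC-3, 133 ± 9.21 CPM in LNCaP) and MLX (48.7 ± 11.4 and 102 ± 19.0 CPM), the partner that MXD proteins share with the MLXIP family. Among turnover regulators 6 of 8 were higher and 1 lower, including PIM1 (1.96 ± 0.09), CIP2A (2.20 ± 0.22) and HUWE1 (-1.71 ± 0.14). Growth metabolism genes gave 9 higher and 4 lower of 19. ODC1, the first enzyme of polyamine synthesis, had 3154 ± 334 CPM in PC-3 and 438 ± 16.3 CPM in LNCaP, and LDHA had 2312 ± 234 and 330 ± 62.5 CPM. PHB1, prohibitin, had 628 ± 67.7 CPM in PC-3 and 191 ± 5.89 CPM in LNCaP. The RNA polymerase I machinery gave 7 higher and 4 lower of 12, led by TAF1A (2.28 ± 0.11), a subunit of the promoter selectivity factor. Small subunit processome genes gave 8 higher and 5 lower of 26, among them DCAF13 (1.79 ± 0.14), IMP4 (0.98 ± 0.09) and NOL6 (-1.68 ± 0.10). Large subunit assembly genes gave 17 higher and 9 lower of 32, among them MRTO4 (log2 fold change 1.98 ± 0.13), RRP15 (1.76 ± 0.13) and RRP1 (85.4 ± 7.18 CPM in PC-3, 36.6 ± 2.98 CPM in LNCaP).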

How the data were processed

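Whole-number counts per gene were deposited by the authors. The submitters' processing notes name the build GRCh38 and the tools STAR 2.7.6a, featureCounts 1.6.4, DESeq2 1.20.0 and fastp, without roles or order. Per the labels' protocols, libraries were made from poly(A) RNA with a kit that does not mark strand. How strand and multi-mapping reads were handled, and which annotation release was counted, is not given in the sources used here. The counts of overlapping genes are therefore uncertain: 29 of the 40 members overlap another locus of the table, and 11 have numbered pseudogene rows. Because headers of the 18 FPKM columns do not match the labels, these were left out, as were the authors' own comparisons.

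The test was edgeR's quasi-likelihood F test (edgeR 4.0.16, R 4.3.3; TMM, default filter on low counts, robust estimation). All 15 LNCaP libraries entered 1 fit for 8 comparisons (10 residual degrees of freedom, common biological coefficient of variation 0.235). The 6 untreated libraries entered another (4 degrees of freedom, 0.208). P-values were Benjamini-Hochberg adjusted over all genes within each comparison, and 0.05 was the threshold. Each standard error is the unshrunken log2 fold change, without its sign, divided by the root of F, and 95% intervals come from the fit. The scripts were tested on simulated counts. The 40 members and all gene lists were chosen with earlier results of these data known. All members were eligible to be named, and of each other list the 3 genes with the smallest adjusted p in the comparison described, where called. A marker gene is not reported here and was left out of the marker sums.

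GENCODE 29 gave transcript lengths and GC content (95.0 and 95.6% of genes tested had both), and RefSeq GRCh38.p14 the promoter windows. Within groups, a chi-square statistic per degree of freedom over genes was 12.0 to 97.6, more than sampling noise alone gives, and every library was counted as its own replicate. Alternatives were other scalings, no filter on low counts, no mitochondrially encoded genes, a replicate block, removal of the GC and length trend, DESeq2 1.42.0, other sets of libraries in the fit, and each library left out.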

Additional observations from a re-analysis of the deposited data

How the results depend on the processing

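Over all members, comparisons and alternatives, 5409 results kept their side of the threshold with no called value changing sign, 182 lost their call, 104 gained one and 2 called values changed sign. The signs of members not called were not counted, and some of these did change. The 5409 include members called in neither fit, such as nearly all at 10 µM, and so do not measure how steady the calls were. Both sign changes of called members were RRP9 in PC-3 against LNCaP, at a log2 fold change of -0.0044 with the GC and length trend removed and -0.0075 with the replicate block added; the cause was not tested. DESeq2 called 2 members with baicalein 10 µM and 1 member between the isomers at 10 µM, where edgeR called 0. Of all genes, DESeq2 called 2.48 and 0.332% there. The fit on the compared groups alone called 12 members between the isomers at 20 µM, where the fit over all LNCaP libraries called 19; of all genes they called 41.6 and 48.7%. Leaving out 1 library gave 0 to 1 members with baicalein 10 µM, beside 0.126 to 0.332% of all genes. It gave 4 to 7 members with genistein 20 µM (9.58 to 11.1% of all genes) and 20 to 25 with baicalein 20 µM (51 to 56%). Between the genistein doses 4 to 9 members were called (6.9 to 10.2% of all genes), and between the baicalein doses 19 to 23 (48.8 to 53%). Between the isomers at 20 µM the count was 12 to 20 (42.3 to 48% of all genes), and in PC-3 28 to 32 (70 to 73.2%). DESeq2 called 12 members with genistein 20 µM, 2 of them higher, and 12 were also called with the GC and length trend removed, 3 of them higher, beside 15.9 and 23.7% of all genes. Same-numbered libraries did not deviate together: correlations of their deviations ran from -0.33 to 0.20, and in 0 comparisons did all 3 pairs exceed 0.1. With the replicate block, 6 members were called with genistein 20 µM (12.9% of all genes) and 22 with baicalein 20 µM (55%). Between doses it called 8 members with genistein (10.3% of all genes) and 20 with baicalein (51.6%). Between the isomers at 20 µM it called 17 (45.8% of all genes), and in PC-3 31 (74.4%). Of called members, 3 of 8 with genistein 20 µM, 16 of 24 with baicalein 20 µM and 23 of 30 in PC-3 were kept in every alternative. The same held for 1 of 10 between the genistein doses and 14 of 20 between the baicalein doses. Between the isomers at 20 µM it held for 10 of 19. The share of all called genes so kept is not given here. With 3 libraries a group, MYC and MAX, which each had a library far from the others, had wide intervals.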

Other observations

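Ranges of over 3-fold between libraries of 1 group were counted over the 16985 genes of the LNCaP fit, for PC-3 as well. They were found for 12.8% of these genes in PC-3, 5.43% with genistein 10 µM and 6.52% with genistein 20 µM. The shares were 8.15% with baicalein 10 µM, 11.1% with baicalein 20 µM and 4.95% in untreated LNCaP. Of the 40 members, 0 to 2 had such a range in each group, a share near or below these. Members with such a range were MYC and MYCN in untreated LNCaP and with genistein 20 µM, MYCN with baicalein 10 µM, MAX and MYCN with baicalein 20 µM, and MXD1 in PC-3. With genistein 10 µM there was none. The libraries high for MYC (untreated library 3 and genistein 20 µM library 2) were not those high for MAX (genistein 10 µM library 1, genistein 20 µM library 1 and baicalein 20 µM library 2). Without its high library, MYC averaged 11.0 CPM with genistein 20 µM and 14.7 CPM in untreated LNCaP. MAX without its high library averaged 22.3 CPM with genistein 10 µM, 21.7 CPM with genistein 20 µM and 36.2 CPM with baicalein 20 µM. These libraries were picked after their values were seen, and the values are a description.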
